A study of Homo sapiens with 20 samples.

Results

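The genes described here encode ubiquitin-conjugating E2 enzymes, taken as every gene of the expression table whose symbol is UBE2 followed by 1 letter and an optional number. The rule found 33 of 24196 listed genes. Ubiquitin is attached to proteins by a cascade in which an E1 enzyme activates ubiquitin, an E2 carries it as a thioester on a catalytic cysteine, and an E3 ligase brings the loaded E2 to its substrate. The E2 often sets the kind of chain that is built, and some E2 enzymes carry ubiquitin-like proteins such as SUMO, NEDD8 or ISG15 in place of ubiquitin. In tumor cells, E2 enzymes are known for their part in mitosis, DNA repair, protein quality control and interferon responses.

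The data were bulk RNA-seq of 8 tumors grown from OVCAR8, a human line of high-grade serous ovarian carcinoma. Per the study's methods, OVCAR8-sgNC-luc cells, which carry a non-targeting guide RNA and luciferase, were among the cells placed orthotopically in the fat pad of the ovary. The hosts were NSG mice, 6 weeks old, a strain without mature lymphocytes or natural killer cells. In the efficacy study they were injected into the peritoneum weekly over 35 days with PBS or with sodium gluconate at 1 mg/kg, and the labels give 4 PBS tumors and 4 gluconate tumors. The paper's text describes the gluconate comparison as one of treated OVCAR8 cells, and the labels, which name orthotopic tumors, were followed. A figure legend of the paper names the tumors of its gluconate study as OVCAR8-sgNC-luc tumors. The labels do not say which line variant the sequenced tumors came from, and whether reads of the mouse host were separated is not given in the sources used here. The other 12 libraries of the series, of cultured knockout and control cells, were not analysed here.

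Levels are in FPKM, the fragments of a gene scaled by its length and by the fragments of the library. PBS replicate 4 stood apart from the other 7 libraries. It held 3722999 fragments over the listed genes, against 37431810 to 44201117 in the others, and 15514 genes above 0 against 19991 to 20251. Its Pearson's r with the others across tested genes was 0.938 to 0.951, whereas no pair of the others was under 0.980. The members were chosen by symbol, but the symbol family was selected on the FPKM of PBS replicate 4 against the other 7 libraries, so the levels of that library are a description without a test, and the comparison of gluconate with PBS was made on the other 7 libraries, with the result of all 8 beside it. The OVCAR8 tumors expressed the line's markers PAX8, KRT7, KRT8, KRT18 and MSLN at 32.4 FPKM or more in all 8 libraries, while MUC16 was at 0 or near 0. Of these, PAX8 and KRT7 were lower in PBS replicate 4 than in any other, at 32.4 against 38.0 to 50.7 FPKM and 124 against 185 to 393 FPKM. EPCAM was lower there as well, at 10.3 against 15.7 to 22.3 FPKM. Of all genes tested with all 8 libraries, 58% were below the others in PBS replicate 4 and 13.7% were above. Defining markers of endothelial cells, red blood cells, adipocytes and skeletal muscle were at or near 0, and the summed level of the 8 fibroblast markers was 44.7 FPKM in PBS replicate 4 against 128 to 190.0 FPKM in the others, most of it COL1A1. Of the myeloid markers, CD68 was at 19.7 to 28.0 FPKM, PTPRC, CSF1R and CD14 were at or near 0, and ITGAM was at 1.36 FPKM in PBS replicate 4 against 0.691 to 0.810 FPKM in the others. WT1, also a marker of the line, was higher in PBS replicate 4, at 6.58 against 1.07 to 1.82 FPKM. Of the granulosa and theca markers, FOXL2 was higher there, at 21.5 against 1.56 to 3.60 FPKM, AMH was lower, at 1.40 against 1.73 to 4.03 FPKM, and CYP19A1 and CYP17A1 were at 0. The part that these shifts had in the levels of the E2 genes was not tested.

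Several members are close paralogs, and the results compare members of the same family. The stretch around the catalytic cysteine is shown for 3 families because it is the most conserved part of an E2 and shows how far the RNA of paralogs can be told apart. Each sequence is 69 coding bases of the GENCODE 29 transcript on GRCh38, from the His-Pro-Asn codons to 12 codons past the cysteine codon, and capitals mark the bases that differ from the first gene of the family.
UBE2A: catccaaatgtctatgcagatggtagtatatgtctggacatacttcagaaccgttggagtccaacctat
UBE2B: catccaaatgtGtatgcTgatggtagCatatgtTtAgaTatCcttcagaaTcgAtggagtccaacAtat
UBE2D1: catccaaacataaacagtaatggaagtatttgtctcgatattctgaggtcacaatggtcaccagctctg
UBE2D2: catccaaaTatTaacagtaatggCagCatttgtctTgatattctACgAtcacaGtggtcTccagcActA
UBE2D3: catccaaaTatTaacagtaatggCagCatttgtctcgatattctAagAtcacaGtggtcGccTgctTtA
UBE2L3: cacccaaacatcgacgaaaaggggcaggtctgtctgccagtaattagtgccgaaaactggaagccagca
UBE2L5: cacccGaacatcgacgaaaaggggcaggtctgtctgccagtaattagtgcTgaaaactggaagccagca

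In this window UBE2B differed from UBE2A at 10 bases, UBE2D2 and UBE2D3 from UBE2D1 at 12 and 11 bases, and UBE2L5 from UBE2L3 at 2 bases. Over the whole coding sequence, UBE2A and UBE2B were 80.5% identical and UBE2D2 and UBE2D3 were 83.8% identical. UBE2L3 and UBE2L5 were 97.6% identical, with 11 differing bases. Among all 528 pairs of members, no aligned run of identical coding bases was longer than 80, and the reads were 150 bases per end. How fragments matching several genes were counted is not given in the sources used here, so the split between UBE2L3 and UBE2L5 is uncertain. GENCODE 29 also names pseudogenes after several members, 15 after UBE2V1, 8 after UBE2Q2, 4 each after UBE2D3, UBE2C and UBE2V2, 3 after UBE2F, 2 after UBE2S and 1 each after UBE2H, UBE2M, UBE2N and UBE2W. The levels of these members carry the same uncertainty.

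The E2 genes were expressed at a wide range of levels that differed little between tumors. Over the 7 libraries other than PBS replicate 4, median levels ran from 0.0726 FPKM for UBE2L5 to 108 FPKM for UBE2C, and 21 of the 33 members were at 20 FPKM or more. The median member was at 28.3 FPKM, while the median over all 12530 genes tested was 6.65 FPKM. The highest library was less than 1.5 times the lowest for 28 of the 32 tested members, and for 71.6% of all genes tested. UBE2L5, the nearest copy of UBE2L3, was the member left out of the tests, since its mean was under 0.5 FPKM.

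UBE2C and UBE2S, which start and extend chains for the anaphase-promoting complex in mitosis, were at medians of 108 and 48.1 FPKM. Both carriers of NEDD8 were expressed, UBE2M at 90.6 FPKM and UBE2F at 4.19 FPKM. The E2 of ISG15, UBE2L6, was at 46.1 FPKM. Of the UBE2D family, which serves a broad range of E3 ligases, UBE2D3 and UBE2D2 were at 73.6 and 52.2 FPKM and UBE2D1 and UBE2D4 at 8.59 and 2.52 FPKM. The E2 genes of endoplasmic reticulum-associated degradation ranged from 10.8 FPKM for UBE2J2 to 41.7 FPKM for UBE2J1. UBE2N, which builds lysine 63 chains, was at 23.6 FPKM. Its partner UBE2V2 was at 33.0 FPKM and its partner UBE2V1 at 0.621 FPKM. Neighbours in this order were mostly close: the 7 libraries of UBE2E1, from 39.5 to 44.2 FPKM, overlapped with those of UBE2J1, UBE2T and UBE2L6. Fewer cells of a type and less RNA per cell cannot be told apart in bulk tumors.

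**Figure D1:**
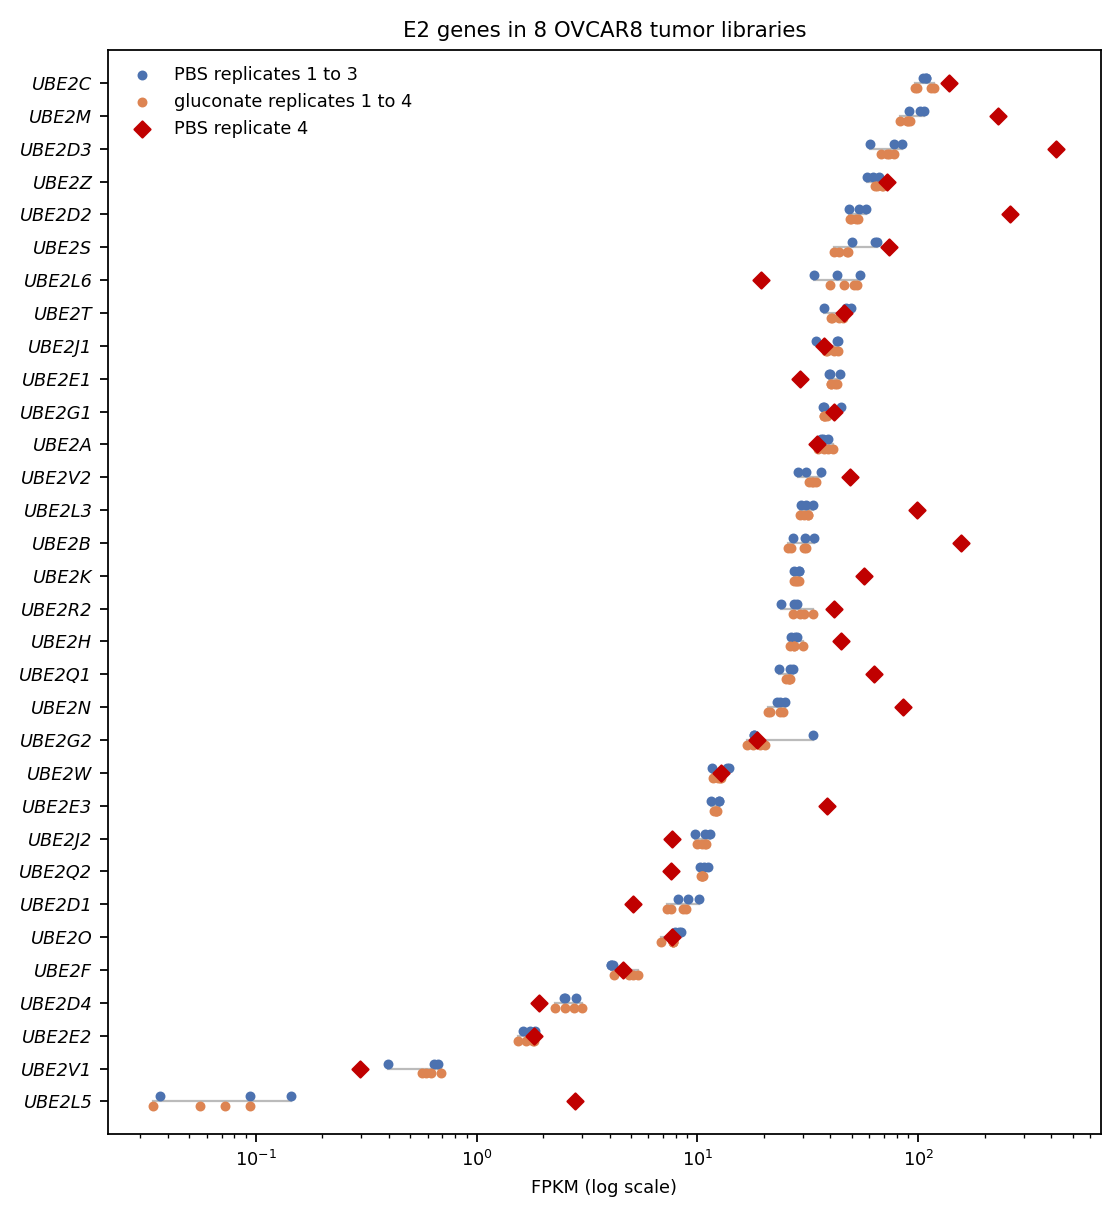
FPKM of 32 of the 33 E2 genes (log axis) in each tumor library, with 1 point per library and a grey line over the range of the 7 libraries other than PBS replicate 4. Red diamonds of PBS replicate 4 lie outside that range for 24 members, 16 above and 8 below.

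In PBS replicate 4, some E2 genes were several-fold higher than in any other tumor. The nearest pairs, UBE2D2 with UBE2D3 and UBE2L3 with UBE2L5, were high together. The next nearest, UBE2V1 with UBE2V2 (82.5% identical in coding sequence) and UBE2A with UBE2B, were split. UBE2V2 and UBE2B were above the other libraries, while UBE2V1 and UBE2A were not high. UBE2D1 was not high either. The summed FPKM of the 33 members was 2153 there, against 1023 to 1088 in the other 7 libraries, a ratio of 1.98 to the highest of them. Of the 32 tested members, 15 were above the highest of the other 7 libraries, where 13.7% of the 12486 genes tested with all 8 libraries were. A further 8 members were below the lowest, where 58% of all genes were, and 9 lay within the range. The member count was 24 above and 6 below after scaling by median ratios, under which 30.4% of all genes were above and 34.4% below. These members were chosen for this library, so the counts describe it and support nothing further. The median log2 ratio of PBS replicate 4 to the median of the others was 0.13 over the members and -0.28 over all genes tested.

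UBE2D3 had the largest ratio of the tested members. The gene spans bases 102794383 to 102868896 of chromosome 4, minus strand, in GENCODE 29 on GRCh38. Its level in PBS replicates 1, 2, 3 and 4 was 84.7, 77.5, 60.7 and 419 FPKM, and in gluconate replicates 1, 2, 3 and 4 it was 71.9, 78.0, 67.6 and 73.6 FPKM. The level in PBS replicate 4 came from 8938 fragments, with a 95% Poisson interval of 410.4 to 428 FPKM. That was 4.95 times the highest of the other libraries. The overlapping antisense gene UBE2D3-AS1 was at 0.215 FPKM in PBS replicate 4 and at 0.497 to 1.01 FPKM in the others, and whether the counting used strand is not given in the sources used here. Poisson intervals given here cover counting error only.

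UBE2D2, at bases 139526431 to 139628433 of chromosome 5 (plus strand), showed a like shift. PBS replicates 1 to 4 had 54.2, 58.2, 48.4 and 260.1 FPKM, and gluconate replicates 1 to 4 had 49.8, 53.2, 48.9 and 52.2 FPKM. PBS replicate 4 was 4.47 times the highest of the others. UBE2D1, by contrast, was lowest in PBS replicate 4. It was at 9.05, 8.13, 10.1 and 5.11 FPKM in PBS replicates 1 to 4 and at 7.62, 8.84, 8.59 and 7.27 FPKM in gluconate replicates 1 to 4. The fourth of the family, UBE2D4, was at 1.91 FPKM in PBS replicate 4 and at 2.27 to 3.01 FPKM in the others, and its Poisson interval of 1.32 to 2.69 FPKM reached into their range. UBE2D2 and UBE2D3 thus made up 99.0% of the family's FPKM in PBS replicate 4 and 89.4% to 92.7% elsewhere.

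UBE2A and UBE2B are the human counterparts of yeast RAD6, which act with RAD18 at stalled replication forks and with RNF20 and RNF40 on histone H2B. UBE2B, at bases 134371179 to 134391992 of chromosome 5 (plus strand), was at 33.7, 30.8, 27.0 and 156 FPKM in PBS replicates 1 to 4. Gluconate replicates 1 to 4 had 25.7, 30.3, 26.5 and 31.1 FPKM of it. The high library was 4.64 times the next. UBE2A, in contrast, was at 34.8 FPKM in PBS replicate 4 and at 35.03 to 41.2 FPKM in the others, and moved above them after scaling by median ratios. UBE2B made up 81.8% of the FPKM of the pair in PBS replicate 4, against 40.4% to 46.4% in the other libraries. The share does not change when all genes of a library are scaled by the same factor. The families whose shares are given were picked for being apart in PBS replicate 4, so these shares are a description.

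UBE2N, the E2 of lysine 63 chains in DNA repair and NF-kappaB signaling, was at 24.9, 23.6, 23.0 and 85.6 FPKM in PBS replicates 1 to 4. Its gluconate levels were 23.6, 24.5, 20.8 and 21.3 FPKM. Its catalytically inactive partner UBE2V2 was at 48.9 FPKM in PBS replicate 4 and at 28.6 to 36.5 FPKM in the others. The partner UBE2V1 was at 0.638, 0.398, 0.665 and 0.297 FPKM in PBS replicates 1 to 4 and at 0.588, 0.565, 0.693 and 0.621 FPKM in gluconate replicates 1 to 4. The lowest value of UBE2V1 came from 5 fragments, with an interval of 0.0964 to 0.693 FPKM that spans the other libraries.

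UBE2L3, which passes ubiquitin to HECT and RBR ligases, was at 33.3, 31.0, 29.5 and 98.8 FPKM in PBS replicates 1 to 4. Gluconate replicates 1 to 4 had 31.8, 31.5, 29.02 and 30.4 FPKM. Its near copy UBE2L5 was at 2.78 FPKM in PBS replicate 4, from 30 fragments, and at 0.0343 to 0.145 FPKM in the others, from 4 to 18 fragments. ARIH1, an RBR ligase that works with UBE2L3, was at 12.4 FPKM against 3.39 to 4.14 FPKM.

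UBE2E3 and UBE2Q1 also differed from their paralogs. UBE2E3, a broad-range E2, was at 12.5, 12.5, 11.5 and 38.7 FPKM in PBS replicates 1 to 4 and at 12.1, 11.9, 12.1 and 12.3 FPKM in gluconate replicates 1 to 4. UBE2E1 was below all others in PBS replicate 4, at 29.3 against 39.5 to 44.2 FPKM, and UBE2E2 lay within their range at 1.81 against 1.53 to 1.85 FPKM. After scaling by median ratios and after quantile normalization, UBE2E2 lay above them. UBE2E3 made up 55.4% of the FPKM of the 3 genes there and 21.4% to 23.2% elsewhere. UBE2Q1 was at 26.3, 27.0, 23.5 and 63.1 FPKM in PBS replicates 1 to 4 and at 25.1, 26.1, 26.2 and 26 FPKM in gluconate replicates 1 to 4. UBE2Q2, its paralog, was lower in PBS replicate 4, at 7.59 against 10.3 to 11.2 FPKM. UBE2Q1 was 89.3% of the pair in PBS replicate 4 and 69.5% to 71.6% elsewhere.

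UBE2M, the NEDD8 carrier for most cullins, was at 90.6, 106, 102 and 229 FPKM in PBS replicates 1 to 4 and at 89.8, 82.8, 88.5 and 91.3 FPKM in gluconate replicates 1 to 4. UBE2F, the other NEDD8 carrier, stayed within the range of the others at 4.59 FPKM. It moved above them after scaling by median ratios and after quantile normalization. The next member down by log2 ratio, UBE2K, was at 56.9 FPKM in PBS replicate 4 and at 27.4 to 28.9 FPKM in the others. UBE2K lay just outside the 8 members farthest above, with a log2 ratio of 1.00 against 1.27 for UBE2Q1.

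UBE2L6, the interferon-induced E2 of ISG15 at bases 57551656 to 57568284 of chromosome 11 (minus strand), was the member farthest below. PBS replicates 1 to 4 had 42.8, 54.2, 33.8 and 19.4 FPKM, and gluconate replicates 1 to 4 had 39.8, 52.7, 51.2 and 46.1 FPKM. The 100 fragments in PBS replicate 4 gave an interval of 15.8 to 23.6 FPKM. Even without that library, its highest level was 1.6 times the lowest, and it was 1 of 4 tested members at 1.5 times or more. The E1 of the ISG15 cascade, UBA7, was likewise lowest in PBS replicate 4, at 1.30 FPKM against 2.34 to 5.34 FPKM. ISG15 itself was at 222 FPKM there and the ISG15 ligase gene HERC5 at 28.0 FPKM, both within the range of the others, which was 213 to 438 and 24.5 to 57.4 FPKM. TRIM25, listed with HERC5 among the partner ligases, was below the others there, at 15.9 against 21.8 to 28.2 FPKM. UBE2J2, which acts at the endoplasmic reticulum, was at 9.73, 11.4, 10.8 and 7.64 FPKM in PBS replicates 1 to 4 and at 9.99, 10.9, 10.8 and 10.5 FPKM in gluconate replicates 1 to 4. The log2 ratio was -0.49 for UBE2J2 and -0.47 for UBE2Q2, the first member outside the 4 farthest below.

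**Figure D2:**
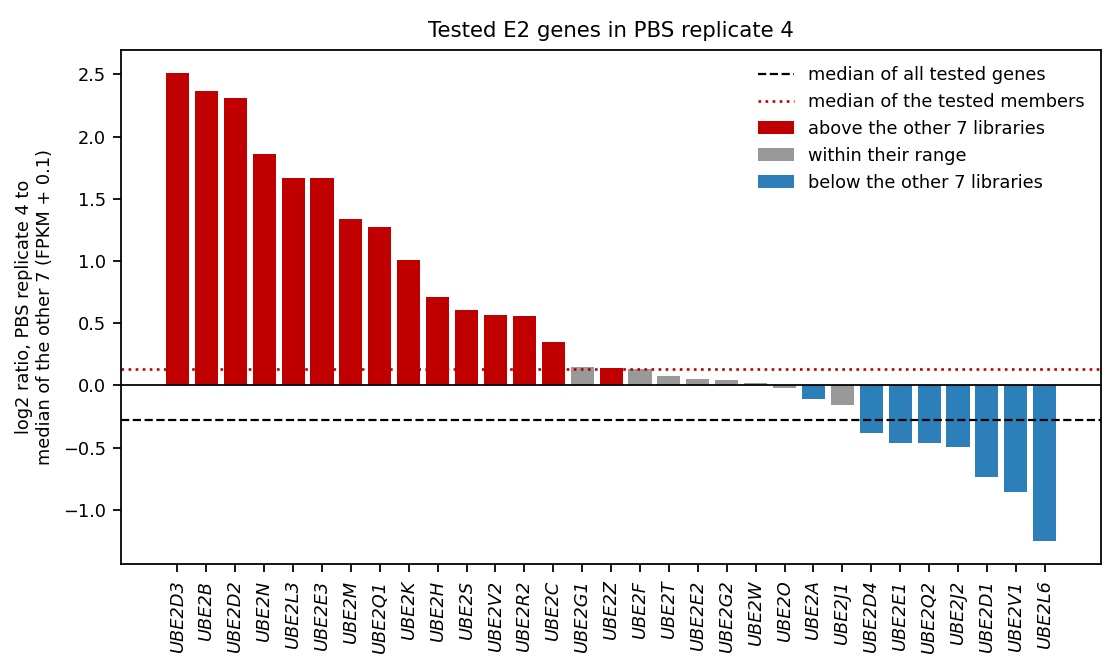
Log2 ratio of PBS replicate 4 to the median of the other 7 libraries on FPKM + 0.1 for 31 of the 32 tested E2 genes, in descending order, colored by their place against the range of those libraries. The bars run from 2.51 for UBE2D3 to -1.25 for UBE2L6, with medians of 0.13 over all tested members and -0.28 over all genes tested.

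PBS replicate 4 exceeded the next highest library by over 2-fold for 8 of the 32 tested members, as it did for 2.53% of all genes. It was under the lowest library by over 2-fold for 0 members, and for 6.33% of all genes. As a description of the same values, the Poisson interval lay wholly above the other libraries for 14 of the 15 members above, with UBE2Z the exception. It lay wholly below for 5 of the 8 members below, with UBE2A, UBE2D4 and UBE2V1 the exceptions. The median GC content of the coding sequence was 46.5% over the 16 members above, UBE2L5 included, and 46.8% over the 8 below. Median coding length without the stop codon was 543 bases over the members above and 457.5 over those below, and the ranges overlapped. Median transcript length was 2865 bases above and 2003.5 below, and these ranges overlapped too. Over the 9 members within the range, the medians were 45.8% GC, 555 coding bases and 3566 transcript bases.

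**Figure D3:**
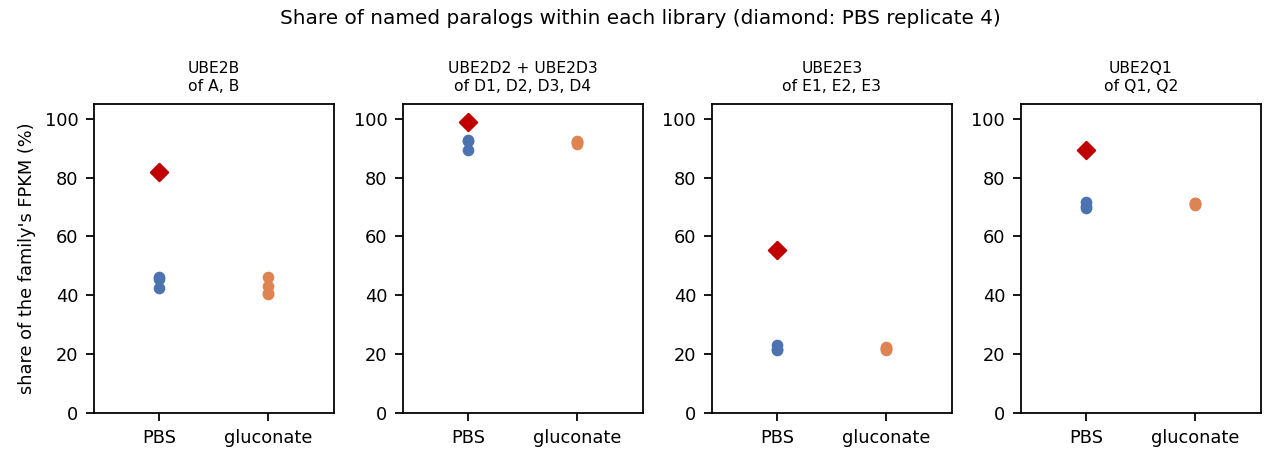
Share of the FPKM of an E2 family (%) that came from the named paralogs, with 1 point per library by group and a red diamond for PBS replicate 4. The families and paralogs drawn were picked for being apart in PBS replicate 4, which lies above the other 7 libraries in each, at 81.8% for UBE2B of the UBE2A and UBE2B pair.

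Genes around the E2 enzymes in the cascade also held members that stood out in PBS replicate 4. Of 62 listed genes of ubiquitin-like proteins, E1 enzymes, other E2 genes and partner E3 ligases, 16 were above and 35 below the other libraries, where 13.7% and 58% of all genes tested were. Among the tested genes, UBB, UBA3, CUL3, PIAS2 and ARIH1 were over 2-fold above the other libraries, as was UBE2QL1, which was too low to be tested. Of these, UBB passed the filter on low values only through PBS replicate 4. Of those below, UBA7 was given with UBE2L6. UBB, a polyubiquitin gene, was at 8.13 FPKM against 0.0158 to 0.582 FPKM. UBA3, the catalytic subunit of the NEDD8 E1 that feeds UBE2M and UBE2F, was at 42.5 FPKM against 14.0 to 18.1 FPKM. The main ubiquitin E1, UBA1, was at 35.2 FPKM, against 29.9 to 34.5 FPKM. CUL3, a cullin that carries NEDD8, was at 48.6 FPKM against 13.1 to 15.0 FPKM, and the SUMO ligase PIAS2 was at 4.48 FPKM against 0.464 to 0.707 FPKM. UBE2QL1, a distant relative of the UBE2Q genes, was at 0.491 FPKM, from 12 fragments, against at most 0.0161 FPKM. CDC34, the paralog of UBE2R2, was at 37.4 FPKM in PBS replicate 4 and at 37.4 to 43.1 FPKM in the others.

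The comparison of gluconate with PBS asked whether the drug went with a difference in tumor transcripts. Without PBS replicate 4, the E2 genes differed little between the groups, and UBE2S had the lowest log2 fold change of the members. With limma and Benjamini-Hochberg adjustment, 0 of 12530 genes had an adjusted p under 0.05, and the smallest was 0.799. At an unadjusted p under 0.05 were 3 of the 32 tested members and 6.21% of all genes. Of these members, 1 was higher in gluconate tumors, where 2.85% of all genes were. The other 2 were lower, where 3.36% of all genes were. A single member is 3.12% of the 32. The median log2 fold change was -0.02 over the members and -0.003 over all genes, and it was under 0.1 in size for 22 members and for 56.3% of all genes. The standard error of a member was 0.06 to 0.20 on the log2 scale. Among the marker genes, an unadjusted p under 0.05 was found for KRT7, which was higher with gluconate, and AMH, which was lower. The fibroblast sum was 128 to 184 FPKM in PBS replicates 1 to 3 and 164 to 190.0 FPKM in gluconate tumors. The part of these in the differences of the members was not tested.

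UBE2S, which elongates lysine 11 chains on targets of the anaphase-promoting complex, spans bases 55399745 to 55407777 of chromosome 19, minus strand. In PBS replicates 1, 2 and 3 it was at 50.1, 65.3 and 63.9 FPKM, a mean of 59.8 ± 8.37 FPKM (SD, n = 3). Gluconate replicates 1 to 4 were at 48.1, 41.5, 43.7 and 47.6 FPKM, a mean of 45.2 ± 3.17 FPKM (SD, n = 4). The groups did not overlap, though PBS replicate 1 was close to the highest gluconate tumor. On the log2 scale gluconate tumors differed by -0.39 ± 0.10 (SE), with an adjusted p of 0.799 from limma (unadjusted p = 0.00296). With all 8 libraries, PBS replicate 4 at 73.4 FPKM included, the difference was -0.47 ± 0.11 (SE), with an adjusted p of 0.740 from limma. As the family was selected on that library, this value lends no support to the difference. UBE2C, which works with UBE2S on the same complex, differed by -0.02 ± 0.08 (SE).

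The NEDD8 carriers were on opposite sides of 0. The mean of UBE2M was 99.5 ± 7.98 FPKM (SD, n = 3) without gluconate and 88.1 ± 3.72 FPKM (SD, n = 4) with it, and PBS replicate 1 lay within the gluconate range. The log2 difference of UBE2M was -0.17 ± 0.07 (SE), with limma's adjusted p at 0.799. UBE2F was at 4.08, 4.08 and 4.14 FPKM in PBS replicates 1 to 3 and at 4.92, 4.19, 5.09 and 5.38 FPKM in gluconate replicates 1 to 4. The groups did not overlap, but gluconate replicate 2 lay close to PBS. For UBE2F the log2 difference was 0.24 ± 0.10 (SE), with limma's adjusted p at 0.799, and UBE2F had the largest log2 fold change above 0. NEDD8, the gene of the protein they carry, differed by 0.17 ± 0.10 (SE). With all 8 libraries, the log2 difference was -0.47 ± 0.25 (SE) for UBE2M and 0.20 ± 0.11 (SE) for UBE2F. The unadjusted p from limma was then 0.0894 for UBE2M and 0.0910 for UBE2F. As the family was selected on PBS replicate 4, the larger difference of UBE2M lends no support.

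The groups did not overlap for 1 member that was higher in gluconate tumors, UBE2F, where 2.43% of all genes were. They did not overlap for 2 members that were lower, UBE2S and UBE2O, where 3.66% of all genes were. UBE2O, a large enzyme with both E2 and E3 activity, was at 7.90, 8.42 and 8.25 FPKM in PBS replicates 1 to 3 and at 7.72, 7.78, 7.77 and 6.87 FPKM in gluconate replicates 1 to 4. Its log2 fold change was -0.12 (standard error 0.08).

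**Figure D4:**
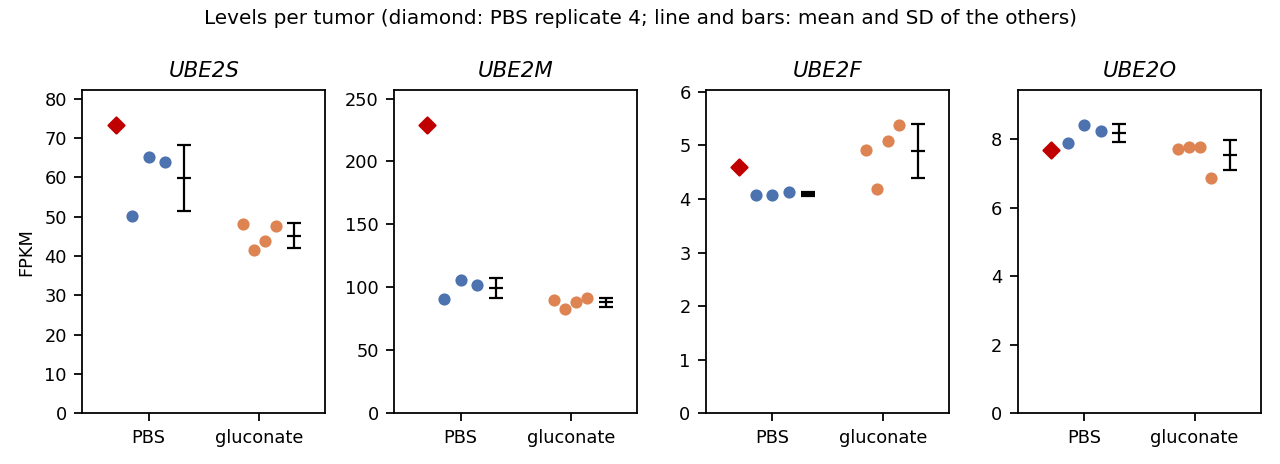
FPKM of UBE2S, UBE2M, UBE2F and UBE2O in each tumor by group, with the mean and SD of PBS replicates 1 to 3 and of the 4 gluconate tumors, and a red diamond for PBS replicate 4. The UBE2S means are 59.8 and 45.2 FPKM, and UBE2M in PBS replicate 4 is at 229 FPKM.

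By role, of the E2 genes of the anaphase-promoting complex, UBE2S had an unadjusted p under 0.05 and UBE2C, at -0.02, did not. Among the 4 carriers of ubiquitin-like proteins, 2 had such a p, UBE2M and UBE2F, where 6.21% of all genes did, and the median was 0.04. Neither had one with all 8 libraries or with a replicate block. Under the block, the log2 fold change was -0.19 for UBE2M and 0.20 for UBE2F, of similar size to those without it. The unadjusted p from limma was then 0.0568 for UBE2M and 0.111 for UBE2F. None of the 8 broad-range E2 genes, 3 of lysine 63 chains, 3 of DNA damage, 4 of endoplasmic reticulum-associated degradation, 2 of HECT, RBR and cullin-RING ligases or 6 others had one, with medians from -0.06 to 0.07. UBE2G2, which acts in endoplasmic reticulum-associated degradation, had the lowest log2 fold change after UBE2S, at -0.26 (standard error 0.19). PBS replicate 3 alone was at 33.2 FPKM of UBE2G2, and the other 7 libraries were at 16.7 to 20.3 FPKM. That tumor was above the 6 others without PBS replicate 4 for 7 of the 32 members and below them for 11, where 21.4% and 25.7% of all genes were.

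Members that were high in PBS replicate 4 had lower log2 fold changes with all 8 libraries. With all 8 libraries, 0 of 12486 genes had an adjusted p under 0.05 by limma. At an unadjusted p under 0.05 were 4.62% of genes, of which 3.13% of all genes were higher and 1.49% lower in gluconate tumors. The members numbered 0 higher and 1 lower, UBE2S, and UBE2S was also the only tested member whose groups did not overlap, as 2.08% of all genes did upward and 1.41% downward. The log2 fold change was under -0.4 for 8 members. For 7 of these, UBE2S left out, it was between -0.17 and -0.005 without PBS replicate 4. UBE2D3 went from -0.02 (standard error 0.11) to -0.64 (standard error 0.51), and UBE2B from -0.10 (standard error 0.10) to -0.69 (standard error 0.48). The sign differed between the fits for 6 members, UBE2V2, UBE2H, UBE2Q1, UBE2J2, UBE2Q2 and UBE2D1. The standard error was larger with PBS replicate 4 for 30 of the 32 members.

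**Figure D5:**
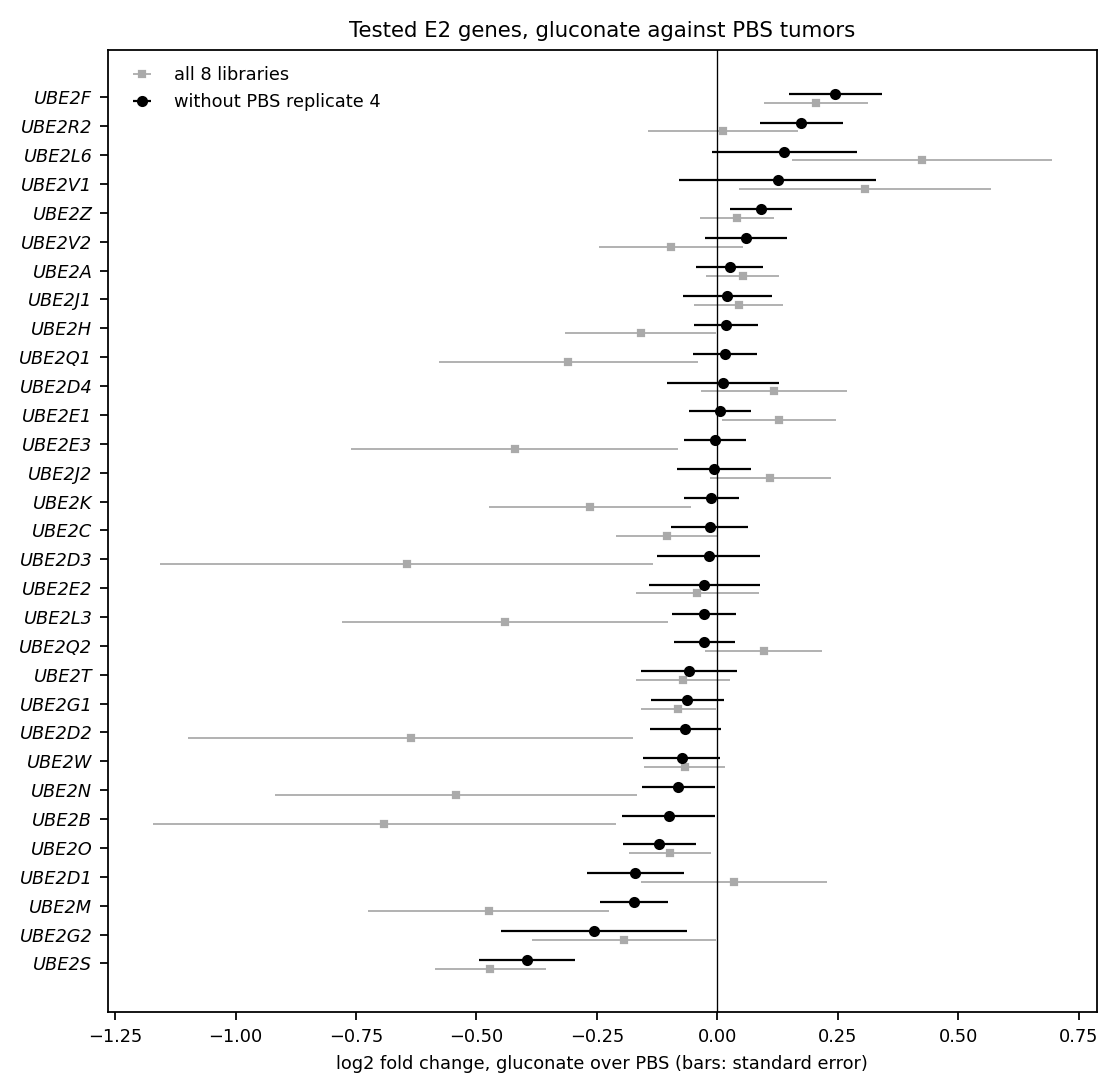
Log2 fold change of gluconate over PBS tumors for 31 of the 32 tested E2 genes, with bars of 1 standard error, without PBS replicate 4 (black) and with all 8 libraries (grey). Without that library the values run from -0.39 for UBE2S to 0.24 for UBE2F, and the grey value of UBE2D3 is -0.64.

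Of 58 tested partner genes, 2 were higher and 1 was lower in gluconate tumors at an unadjusted p under 0.05 without PBS replicate 4, where 2.85% and 3.36% of all genes were. These counts are near that share. ISG15, the interferon-induced modifier that UBE2L6 carries, averaged 283 ± 64.2 FPKM (SD, n = 3) without gluconate and 366 ± 53.9 FPKM (SD, n = 4) with it. This was a log2 difference of 0.38 ± 0.16 (SE), with limma's adjusted p at 0.799, and the groups overlapped. The log2 difference was 0.14 ± 0.15 (SE) for UBE2L6 and 0.42 ± 0.20 (SE) for HERC5. AKTIP, an E2-like protein without the catalytic cysteine, differed by 0.27 ± 0.10 (SE) on the log2 scale. UFM1, another ubiquitin-like modifier, differed by -0.27 ± 0.07 (SE), with limma's adjusted p at 0.799.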

How the data were processed

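The members and gene lists were chosen with earlier results of these data known. Polyadenylated RNA of 8 tumors was sequenced by the authors as read pairs of 150 bases per end, and they deposited FPKM values for 24196 genes by symbol. The submitters' processing notes name GRCh38. The aligner, counting, strand setting and annotation are not given in the sources used here. Columns headed C and T with a number were read as PBS and gluconate replicates from the axis of the study's volcano plot.

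Members were the symbols matching UBE2, a letter and an optional number. UBE2U, which was on the role lists, was not used here, and 1 member is counted in every total but not reported here by name. Groups were compared with limma 3.58.1 in R 4.3.3, with a mean-variance trend, two-sided and without a block, on log2(FPKM + 0.1) over genes with a mean of at least 0.5 FPKM in the libraries fitted, with Benjamini-Hochberg adjustment over all of them. A fold change on this scale understates that of low genes. P-values measure the spread between these tumors, whose mice the labels do not name. PBS replicate 4 was left out of the main comparison.

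Whole fragments were recovered from the steps of the FPKM values for 24190 genes (tolerance 0.002) and served for depth, 95% Poisson intervals and a fit with voom. Statistics of the group difference are given for members with an unadjusted p under 0.05 in either fit and the extreme members. Levels in every library are given for the 8 members farthest above and the 4 farthest below in PBS replicate 4. UBE2G2, UBE2O, UBE2C, UBE2L6, UBE2D3, UBE2B, NEDD8 and HERC5 are given fold changes outside this rule, chosen after their values were seen. The levels of UBA7, ISG15, HERC5 and TRIM25 in PBS replicate 4 were chosen in the same way. Partner genes were named at an unadjusted p under 0.05, over 2-fold outside the other libraries, or as defining genes (UBB, UBA1 and CDC34). The main fit was tested on simulated data with fold changes larger than those of the members. The other fits were not simulated. Coding sequences were aligned pairwise with biopython 1.88, and other work used Python 3.11.15, numpy 2.4.6, pandas 2.3.3, scipy 1.17.1 and matplotlib 3.10.9. Alternatives were other pseudocounts, filters and scalings, voom, a fit blocked by replicate number, and fits with 1 library removed.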

Additional observations from a re-analysis of the deposited data

Results flagged for a closer look

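In each group of 4 tumors, the highest and lowest level of every member was compared with the others by the ratio of its gap to the group's range, with Dixon's 95% critical value as the line, which about 1 group in 20 passes by chance. Of 66 groups, 15 were past it, 13 of them through a high level in PBS replicate 4. The family was selected on that library, so the chance rate does not apply to these 13, which are listed as a description. They were UBE2D3 at 419 FPKM, UBE2D2 at 260.1 FPKM, UBE2M at 229 FPKM, UBE2B at 156 FPKM, UBE2C at 138 FPKM and UBE2L3 at 98.8 FPKM. The others were UBE2N at 85.6 FPKM, UBE2Q1 at 63.1 FPKM, UBE2K at 56.9 FPKM, UBE2H at 44.9 FPKM, UBE2E3 at 38.7 FPKM, UBE2F at 4.59 FPKM and UBE2L5 at 2.78 FPKM. UBE2F stood out only from the other PBS tumors, since gluconate tumors reached 5.38 FPKM. Its 41 fragments in PBS replicate 4 gave a Poisson interval of 3.29 to 6.23 FPKM, which covers the other PBS tumors. UBE2G2 was at 33.2 FPKM in PBS replicate 3, while the rest of its group ranged from 17.9 to 18.6 FPKM. UBE2O was at 6.87 FPKM in gluconate replicate 4, and the other gluconate tumors were at 7.72 to 7.78 FPKM.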

How the results depend on the processing

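The log2 fold changes of UBE2S, UBE2F and UBE2M kept their sign in all 16 alternatives, and 0 genes had an adjusted p under 0.05 by limma or voom, which gave 315 genes higher and 444 lower at an unadjusted p under 0.05. Without PBS replicate 4, members at an unadjusted p under 0.05 numbered 1 higher and 2 lower. They were 0 and 1 with all 8 libraries, 1 and 1 with scaling by median ratios and 0 and 2 with voom. Leaving out 1 library each gave 0 to 2 higher and 1 to 3 lower. All 8 libraries gave a median log2 fold change of the members of -0.076 and 186 genes lower, and no filter gave 550.0 genes higher and 633 lower. Leaving out 1 library each gave 212 to 773 genes higher and 285 to 678 lower, with 773 and 678 without PBS replicate 1. Members whose groups did not overlap numbered 3, 1 with all 8 libraries and 3 to 8 with 1 library left out, 8 without PBS replicate 1, 6 without PBS replicate 2 and 7 without PBS replicate 3. The shares of all genes were 6.1% as reported, 3.49% with all 8 libraries and 20.6%, 14% and 11% without PBS replicates 1, 2 and 3, against 9.38%, 3.12%, 25%, 18.8% and 21.9% of members. These counts were added after seeing the data.

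Deviations from the group means correlated at -0.0734, 0.136 and 0.113 between tumors of the same number. Between tumors of different numbers they correlated at -0.159 to 0.173. So few tumors cannot decide whether the replicate numbers paired them. With a replicate block, 0 members were higher and 1 lower at an unadjusted p under 0.05, and the log2 fold change of UBE2S was -0.42.

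In PBS replicate 4, scaling by median ratios put 24 members above and gave a median log2 ratio of 0.39. Quantile normalization put 20 above and 5 below and gave 0.28, where 24.6% of all genes were above and 37.9% below, with a median of -0.08. Leaving out 1 other library each gave medians of 0.12 to 0.14. The cause was not tested. The depth of PBS replicate 4 limits members of few fragments, such as UBE2V1, UBE2L5 and UBE2D4.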
